A study of Mus musculus with 98 samples.

Results

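Growth hormone axis genes were followed here as 10 genes, 5 of the mouse (Ghr, Igf1, Igfals, Socs2 and Cish) and the 5 human genes of the same names (GHR, IGF1, IGFALS, SOCS2 and CISH), of 38486 genes counted in all. They were chosen for their place in the axis, the mouse genes by symbol and the human genes by the Ensembl identifiers ENSG00000112964, ENSG00000017427, ENSG00000099769, ENSG00000120833 and ENSG00000114737, in that order. All 10 were found. Counts of the mouse genes came from liver, from muscle of the skeleton and from a pair of hypothalamic nuclei, the suprachiasmatic (SCN) and the arcuate (ARC), and those of the human genes from liver.

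Growth hormone is released by the pituitary under the control of hypothalamic Ghrh and somatostatin (Sst) and acts through its receptor, which signals through the kinase JAK2 and the transcription factors STAT5A and STAT5B. In hepatocytes this pathway drives IGF1, a growth factor secreted into blood, and IGFALS, the acid-labile subunit that keeps IGF1 in a long-lived complex there. SOCS2 and CISH are also direct targets of STAT5 and act back on the receptor as feedback inhibitors. The human receptor is known to respond poorly to the growth hormone of rodents.

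All animals were male FRGN mice aged 10 weeks, which lack Fah, Rag2 and Il2rg and carry a non-obese diabetic background. Their livers had been repopulated with human hepatocytes (Hu) or with murine hepatocytes (Mu), so the Mu mice were transplanted controls. The deletions named are those of the host mice in both arms. In Hu livers the mouse hepatocytes are the host's own, whereas in Mu livers they include the graft. The origin of the mouse hepatocytes therefore differs between the arms and cannot be told apart from other effects of the arm. Both arms cycled on nitisinone (NTBC) at 8 mg/l for 3 days every 5 weeks with sulfamethoxazole, trimethoprim and dextrose in the water. Hu mice were taken at a human repopulation above 70%, and the number of hepatocyte donors is not given in the sources used here. Tissues were sampled at zeitgeber times (ZT) 2, 6, 10, 14, 18 and 22, with 15 Hu and 12 Mu libraries of liver and of muscle and 10 Hu and 12 Mu libraries of ARC and of SCN. The labels number the samples without tying the tissues to animals, so p-values measure the spread between these samples.

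Total counts (M, mega-counts) were 22.95 to 122.2 M in Hu livers, 97.1 to 118.3 M in Mu livers, 43.1 to 92.1 M in muscle and 23.7 to 47.1 M in ARC and SCN. Human rows took 15.9 to 93.1% of the counts of a Hu liver (median 58.7%) and 0.00592 to 0.0204% in Mu livers. This share was under 70% in 11 of 15 Hu livers; it is a share of reads and not of cells. Muscle held the muscle fibre markers at a summed level of 104564 to 149276 CPM (counts-per-million), and ARC and SCN held neuron markers at 2816 to 4966 CPM. A mouse gene's CPM in liver is taken over mouse counts and a human gene's CPM over human counts, because both kinds of cell share 1 library. CPM values are printed without further scaling, whereas fitted differences between arms use TMM scaling (trimmed mean of M values). In such bulk samples, fewer cells of a type and less RNA per cell cannot be told apart.

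In liver, the mouse receptor gene Ghr and the mouse genes Igf1 and Igfals were lower in Hu mice, while the feedback inhibitor Socs2 was higher. Of the 5 mouse genes 3 fell and 1 rose at an adjusted p under 0.05 (edgeR's quasi-likelihood test with Benjamini-Hochberg adjustment over 14977 genes). Over all genes tested 79.5% were called in this comparison, 42.5% higher and 37% lower in Hu livers, so a call alone sets these genes apart from few others.

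Ghr lies on the minus strand of chromosome 15 at 3317760 to 3583492 (GRCm38). It stood at 83.4 CPM in the lowest Hu liver, 161 in the median and 248 in the highest, against 409, 575 and 721 CPM in Mu livers. The highest Hu liver was below the lowest Mu liver, so all 15 lay under the Mu range, a separation downward that 3.67% of the genes tested showed. These ranges and this percentage use CPM without TMM. That scaling called 72.6% of the genes tested higher and 12.9% lower in Hu livers, so the percentage depends on it. The fitted log2 difference was -2.43 (SE 0.18, adjusted p = 4.56e-11), a level 5.39-fold lower.

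Igf1 lies on the plus strand of chromosome 10 at 87858265 to 87937042. Hu livers held 159, 287 and 439 CPM of mouse Igf1 as lowest, median and highest values, and Mu livers 373, 550 and 769 CPM. The ranges overlapped, with 12 of 15 Hu livers under every Mu liver. Its log2 difference was -1.52 (SE 0.16, adjusted p = 1.13e-08).

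Igfals lies on the plus strand of chromosome 17 at 24865997 to 24882010. It was at 2.21, 18.4 and 29.3 CPM (lowest, median, highest) in Hu livers and at 58.2, 89.0 and 122 CPM in Mu livers, again with no overlap. The lowest value, 17 counts, came from the Hu liver at ZT 18 with the highest human share. Its log2 difference was -2.96 (SE 0.25, adjusted p = 2.32e-10), and over the fits that left out 1 library each it ran from -3.04 to -2.86.

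STAT5 dimers bind the palindrome TTCNNNGAA, which reads the same on both strands, and Igfals was the gene of the axis with a match in its RefSeq promoter windows. The 250 bases before each listed start were searched (GRCm38.p6), and 2306 of 32851 such windows of all genes (7.02%) held it. Igfals had a match in 2 of its 3 windows, beginning 236 and 58 bases before the start. These 2 windows are shown with the match in capitals, on the plus strand.
Igfals, chr17:24877594-24877843: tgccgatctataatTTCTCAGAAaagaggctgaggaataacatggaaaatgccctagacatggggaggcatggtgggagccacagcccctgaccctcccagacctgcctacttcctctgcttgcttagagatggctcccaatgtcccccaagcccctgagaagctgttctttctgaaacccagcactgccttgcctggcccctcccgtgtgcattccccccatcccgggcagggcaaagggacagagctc
Igfals, chr17:24877981-24878230: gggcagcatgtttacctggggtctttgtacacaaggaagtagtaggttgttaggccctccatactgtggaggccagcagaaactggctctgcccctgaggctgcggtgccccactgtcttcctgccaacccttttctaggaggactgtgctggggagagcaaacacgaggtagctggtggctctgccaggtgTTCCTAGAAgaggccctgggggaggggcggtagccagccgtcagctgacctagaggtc
No match lay in the 1 window of Cish, the 1 of Igf1 or the 2 of Ghr, and Socs2 had no entry. A match is a stretch of letters and was not tested for binding.

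Socs2 lies on the minus strand of chromosome 10 at 95385362 to 95417180. Hu livers held 19.5, 31.3 and 64.3 CPM as lowest, median and highest values, and Mu livers 3.78, 8.40 and 32.3 CPM. Every Hu liver was above the Mu median and 7 of 15 were above all Mu livers; the 2 highest Mu livers, at 29.5 and 32.3 CPM, were both taken at ZT 6. The log2 difference was 0.997 (SE 0.24, adjusted p = 5.57e-04). In CPM without TMM, 26.2% of the genes tested had every Hu liver above every Mu liver, and Socs2 was not among them.

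Cish lies on the plus strand of chromosome 9 at 107296026 to 107302784. It was at 7.53, 25.8 and 58.6 CPM in Hu livers and at 2.61, 13.1 and 74.6 CPM in Mu livers. The Mu values spanned the Hu values at both ends. Its log2 difference of -0.23 (SE 0.42, 95% interval -1.10 to 0.64, adjusted p = 0.617) did not pass. Without the Mu liver at ZT 22 with replicate number 1, its highest at 74.6 CPM, the difference was 0.04, and the sign also changed with the scaling.

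**Figure D1:**
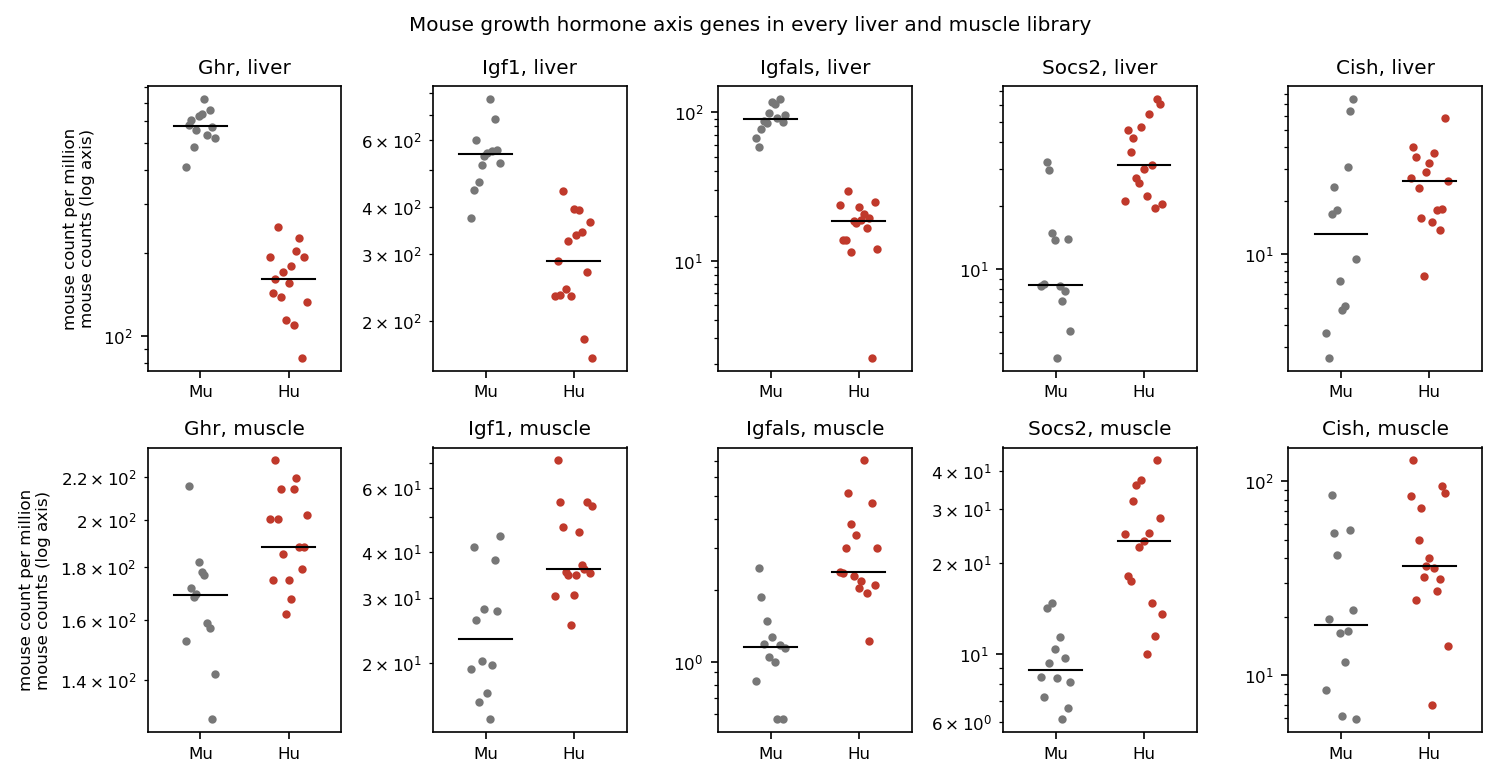
Mouse Ghr, Igf1, Igfals, Socs2 and Cish in liver (top) and muscle (bottom), in CPM of mouse counts on a log axis whose range differs between panels; each point is 1 library and each line a median. In liver the Hu points of Ghr and Igfals lie below all Mu points, while in muscle the Socs2 points of 11 Hu libraries lie above all Mu points.

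The liver values rest on how the mouse rows are scaled. TMM scaling put the median log2 difference of all genes at 0.07. Dividing by mouse counts without TMM, a setting chosen after seeing the data, moved that median to 0.74 and the calls to 10877 higher and 1938 lower. Dividing by all counts of the library moved it to -0.70, with 2494 higher and 8978 lower. Ghr, Igf1 and Igfals stayed lower under all 3 scalings, with log2 differences of -1.82, -0.88 and -2.35 without TMM and of -3.06, -2.23 and -3.58 per all counts. Socs2 was at 1.68 without TMM and at 0.24 per all counts (adjusted p = 0.417), where it no longer passed. Cish was at 0.43 without TMM (adjusted p = 0.343) and at -0.97 per all counts (adjusted p = 0.0397), where it passed as lower.

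Markers of other liver cells moved with the arm. Of 10 mouse hepatocyte markers 9 were lower in Hu livers, with a summed level of 15541 to 106224 CPM against 90297 to 110532 CPM in Mu livers. All 7 stellate cell markers, all 6 of sinusoidal endothelium and all 5 of bile duct were higher, as were 4 of 7 Kupffer cell markers. Summed stellate markers reached 564 to 8214 CPM in Hu livers against 286 to 535 CPM in Mu livers, and summed endothelial markers 368 to 3628 CPM against 293 to 339 CPM. None of these markers was at 0 in every library of an arm. Per all counts the Kupffer and endothelial markers no longer rose as a list (0 and 1 higher, 4 and 2 lower), while 5 of 7 stellate and all 5 bile duct markers did and all 10 hepatocyte markers were lower; without TMM 8 hepatocyte markers were lower and all markers of the other 4 lists were higher. With the summed hepatocyte markers as a covariate, added after seeing the data, the log2 differences were -2.15 for Ghr, -1.38 for Igf1, -2.46 for Igfals and 0.95 for Socs2 (adjusted p of 0.00232 or less for each), and -0.03 for Cish (adjusted p = 0.950). In that fit 9 of 10 hepatocyte markers were still lower (list median -0.85), so the covariate did not remove the hepatocyte difference between the arms. The part of the other cell types in these values was not tested.

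Levels of the 5 genes were also compared per length. In TPM (transcripts-per-million) of mouse rows, Mu livers had Ghr at 164 ± 29.2 (SD, n = 12), Igf1 at 143 ± 32.2, Igfals at 74.5 ± 17.9, Cish at 8.87 ± 10.1 and Socs2 at 3.40 ± 2.38. Ghr, Igf1 and Igfals overlapped, as did Cish and Socs2. Hu livers had Igf1 at 89.7 ± 24.8 TPM (n = 15), Ghr at 53.7 ± 12.04, Igfals at 16.5 ± 5.80, Cish at 12.4 ± 5.96 and Socs2 at 11.8 ± 5.58. The ranges of Igf1 and Ghr overlapped there too (48.3 to 124 and 34.1 to 76.5 TPM). Such ranges do not compare the genes within each library, and a difference between genes was not tested. The ranges of Igfals, Cish and Socs2 also overlapped in Hu livers, whereas in Mu livers the lowest Igfals value, 48.4 TPM, was above the highest Cish value, 31.2 TPM.

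On the human side of the same 15 Hu livers, the receptor was the most counted gene of the 5 and the feedback inhibitor SOCS2 was close to absent from the counts. GHR was at 284, 447 and 619 CPM of human rows (lowest, median, highest; mean 433 ± 92.5, SD, n = 15). The receptor was thus counted at a high level in every Hu liver, from 4843 to 50269 counts. IGF1 was at 3.31, 20.4 and 32.2 CPM (mean 18.5 ± 9.24), a wider spread than that of GHR. IGFALS was at 3.09, 13.5 and 26.8 CPM (mean 14.4 ± 7.23), and CISH at 2.64, 6.01 and 9.35 CPM (mean 5.70 ± 2.00). The same Hu liver had the lowest IGF1 and the lowest IGFALS value. SOCS2 had 1 to 30 counts per liver (0.0237 to 0.460 CPM, mean 0.226 ± 0.140) and did not pass the filter on low counts, so it has no test. Human gene lengths were not used here, and these CPM values are therefore not ranked between genes beyond the counts themselves.

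Human rows of the Mu livers, whose hepatocyte graft was murine, give a background for these counts; its source was not tested. Over 12 Mu livers GHR had 0 to 10 counts, IGF1 0 to 4, IGFALS and SOCS2 0 to 1, and CISH 0 in each. Those livers held 412 to 3358 counts of mouse Socs2, and the Hu livers 223 to 4150, so the 1 count of SOCS2 in the Hu liver with the lowest human share is no more than that background. Human reads counted on mouse rows could not be measured, since no library held human cells alone.

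Set beside the mouse gene in the same library, human SOCS2, IGF1 and CISH each took a smaller part of their pair than human RNA took of the library. A pair is a human gene with the mouse gene of the same name, and its human part is the percentage of their summed counts on the human row. Human SOCS2 made up 0.0542 to 5.17% of its pair (median 0.870%), and the median of the library shares was 58.7%. IGF1 made up 0.734 to 50.6% (median 10.2%) and CISH 3.92 to 82.6% (median 35.4%). For all 3 pairs the human part was below the library share in 15 of 15 livers. IGFALS made up 10.999 to 99.3% (median 52.0%) and was below the library share in 12 of 15. GHR, at 22.2 to 98.6% (median 81.7%), was above it in 15 of 15. Pairs of other genes were not counted, so how often a pair lies on the same side in every liver is not known. A fixed offset of a gene, as from its length in each species, would recur in every liver. The 15 livers are therefore not separate evidence on a pair.

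**Figure D2:**
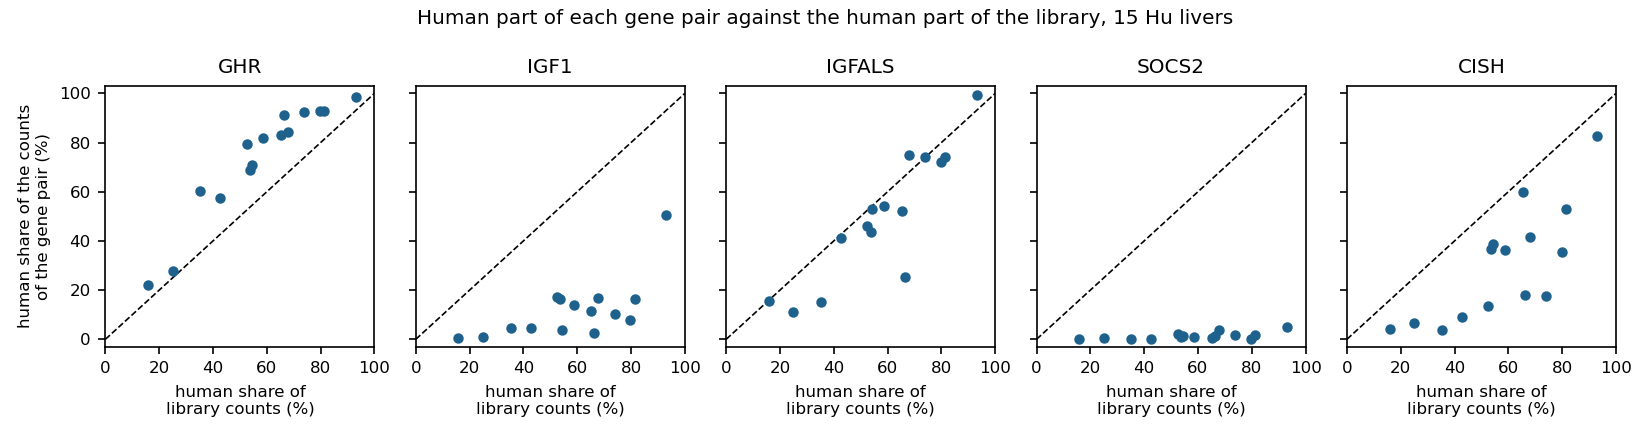
Human percentage of the summed human and mouse counts of each pair against the human percentage of all counts of the library, 1 point for each of 15 Hu livers; the dashed line marks equal percentages. All GHR points lie above the line, all IGF1, SOCS2 and CISH points lie below it, and SOCS2 stays at or under 5.17%.

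The same contrast can be read liver by liver. In the Hu liver with the highest human share, 93.1%, SOCS2 had 27 human and 495 mouse counts, a human part of 5.17% (95% Wilson interval 3.58 to 7.42%, counting error only). IGF1 had 2119 human and 2065 mouse counts there, GHR 46722 and 642, and IGFALS 2572 and 17. In the Hu liver with the lowest human share, 15.9%, SOCS2 had 1 human and 1844 mouse counts and GHR 4843 and 16957. GHR was thus above and SOCS2 below the library share at both ends of the range.

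The pairs were also expressed with each gene scaled to the counts of its own species. Within a liver this divides all 5 pairs by 1 common factor, so the order of the pairs is that of the percentages above and adds nothing to it. The log2 ratio of human over mouse CPM had a mean of 1.43 for GHR (-7.60 for SOCS2), with ranges of 0.19 to 2.44 and -11.16 to -5.62 over 15 livers. It was -4.16 for IGF1, -2.14 for CISH and -0.33 for IGFALS, whose range of -2.53 to 3.49 included both signs. The CPM of the 2 species differ in gene length, row set and cell make-up, so the ratios are given as a description without a test.

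**Figure D3:**
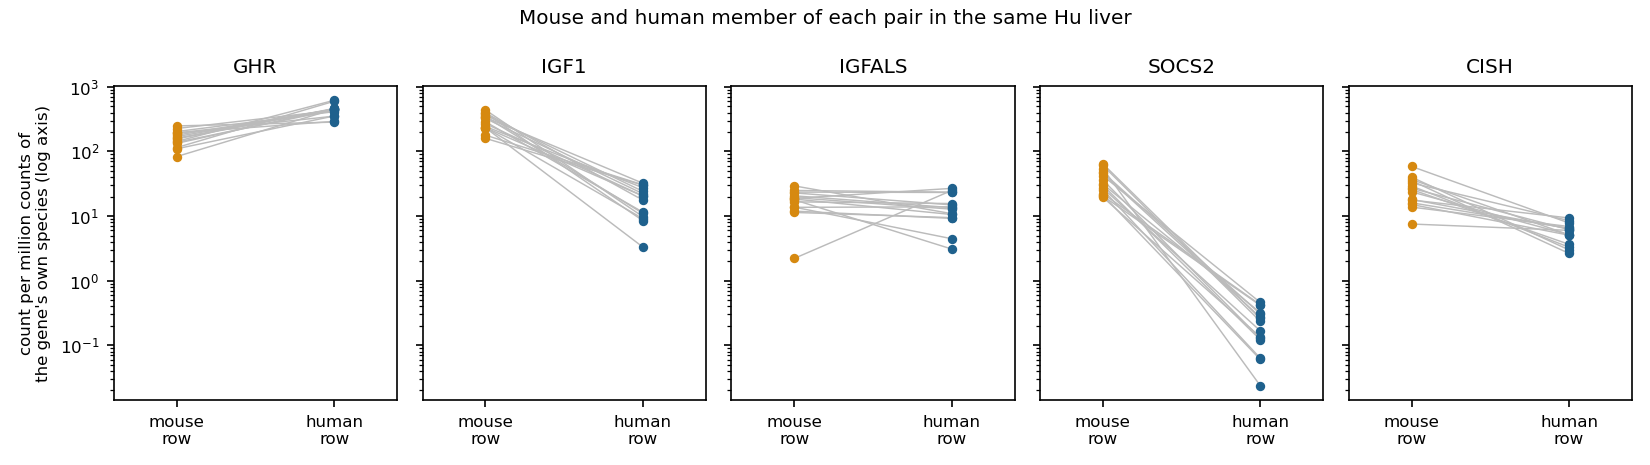
Mouse and human member of each pair in the same Hu liver, in CPM of the gene's own species on a log axis; grey lines join the values of 1 liver. The lines rise for GHR in all 15 livers and fall for IGF1, SOCS2 and CISH, while those of IGFALS go both ways.

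The axis was next examined in skeletal muscle, a tissue of mouse cells in both arms. Here 4 of the 5 mouse genes were higher in Hu mice and none was lower. Over all 14197 genes tested 26.9% were called, 13.5% higher and 13.3% lower.

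Socs2 rose in muscle as it did in liver. It was at 9.99, 23.6 and 43.4 CPM in Hu muscle (lowest, median, highest) and at 6.09, 8.89 and 14.7 CPM in Mu muscle. All 15 Hu libraries were above the Mu median and 11 were above every Mu library. The arms did not overlap upward for 0.204% and downward for 0.0282% of the genes tested, and Socs2 was not among them. Its log2 difference was 1.31 (SE 0.20, adjusted p = 1.21e-04), a level 2.49-fold higher.

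Igf1, which muscle makes as a local growth factor, was at 25.3, 36.1 and 71.1 CPM in Hu muscle and at 13.998, 23.2 and 44.2 CPM in Mu muscle. The ranges overlapped, where 6 of the 15 Hu values exceeded the highest Mu value, and the log2 difference was 0.66 (SE 0.15, adjusted p = 0.00225). Igfals was at 1.22, 2.38 and 7.04 CPM in Hu and 0.570, 1.15 and 2.48 CPM in Mu muscle, from 29 to 648 counts per library. Its log2 difference was 1.34 (SE 0.22, adjusted p = 2.33e-04), and 7 of the 15 Hu values exceeded the highest Mu value.

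The receptor changed little in muscle. Ghr was at 162, 188 and 228 CPM in Hu and 128, 169 and 216 CPM in Mu libraries. The difference of 0.19 (SE 0.06, adjusted p = 0.0216) is a level 1.14-fold higher, and it no longer passed when ZT entered as a factor (adjusted p = 0.0543). Cish was at 7.02, 36.6 and 128 CPM in Hu and 5.89, 18.1 and 85.4 CPM in Mu libraries, a difference of 0.75 (SE 0.42, adjusted p = 0.194) that did not pass. Without the Mu library at ZT 18 with replicate number 2, which stood at 55.9 CPM, the Cish difference was 1.18 (adjusted p = 0.0295).

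Fat cell markers moved with the arm in muscle. Of 6 markers 5 were higher in Hu muscle, and none was at 0 in every library of an arm. Their summed level was 95.8, 524 and 2316 CPM in Hu libraries and 7.50, 65.4 and 931 CPM in Mu libraries. All 5 Kupffer cell markers that were tested were higher as well, with sums of 28.0 to 92.7 CPM against 13.98 to 59.9 CPM. With the summed fat cell markers as a covariate, added after seeing the data, Socs2 kept a difference of 1.31 (adjusted p = 0.0177), while 569 genes were called in place of 3817. Igfals was then at 0.62 (adjusted p = 0.105), Igf1 at 0.32 (adjusted p = 0.262), Ghr at 0.11 (adjusted p = 0.425) and Cish at 0.64 (adjusted p = 0.552). The part of the macrophage-type markers was not tested.

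Per length, Ghr had the highest mean of the 5 genes in muscle and Igfals the lowest. Mu muscle had Ghr at 51.3 ± 7.21 TPM (SD, n = 12), Cish at 12.4 ± 10.8, Igf1 at 7.32 ± 3.06, Socs2 at 2.78 ± 0.771 and Igfals at 1.07 ± 0.493. Hu muscle had 61.1 ± 6.43, 22.7 ± 15.3, 12.1 ± 3.66, 7.17 ± 3.06 and 2.83 ± 1.47 TPM in the same order (n = 15). The ranges of neighbours in this order overlapped in each arm, apart from Ghr and Cish in Mu muscle. The genes were not compared within each library, so a difference between neighbours was not tested.

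Whether the arm difference itself depended on the tissue was tested in 1 model over all 54 liver and muscle libraries and 15774 genes. The liver difference minus the muscle difference was -4.31 for Igfals (SE 0.34, adjusted p = 3.14e-14), -2.64 for Ghr (SE 0.20, adjusted p = 8.94e-15) and -2.21 for Igf1 (SE 0.23, adjusted p = 2.75e-11). These 3 of 5 genes passed, all toward a lower value in liver, as did 33.4% of all genes tested, and 31.7% passed toward a higher one. For Socs2 it was -0.35 (95% interval -0.98 to 0.29, adjusted p = 0.341) and for Cish -1.01 (95% interval -2.25 to 0.24, adjusted p = 0.149), or -1.49 (adjusted p = 0.0265) without the Mu muscle library at ZT 18 with replicate number 2. Ghr, Igf1 and Igfals thus parted between the tissues, whereas no such difference was detected for Socs2, and that of Cish passed when 1 library was left out.

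**Figure D4:**
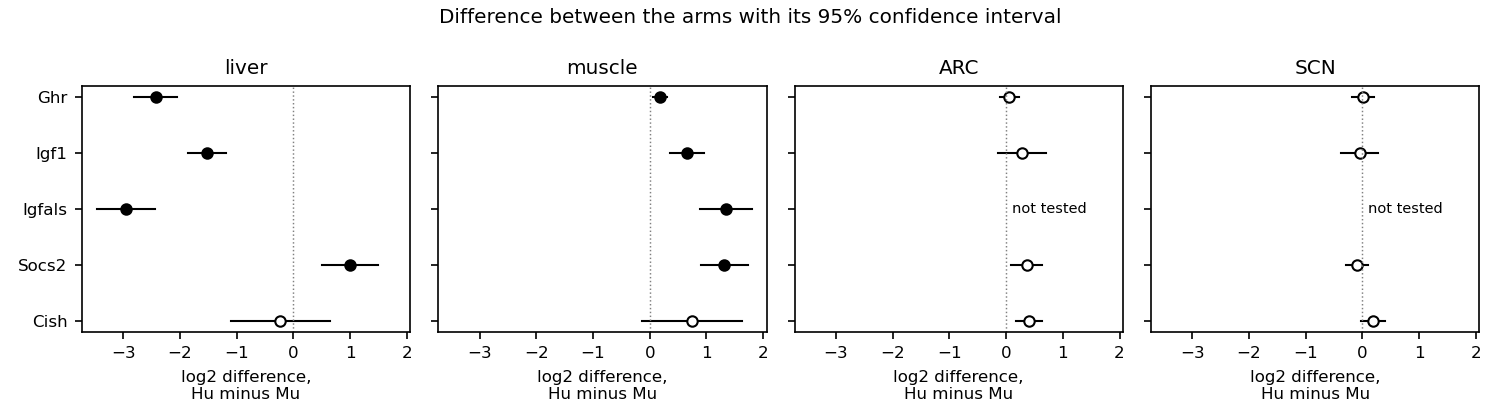
Fitted log2 difference, Hu minus Mu, of each mouse gene in the 4 tissues, with lines for the 95% confidence interval; filled points have an adjusted p under 0.05 and open points do not. Ghr, Igf1 and Igfals lie left of 0 in liver and right of 0 in muscle, Socs2 lies right of 0 in both, and no point is filled in ARC or SCN.

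In the hypothalamic nuclei, where growth hormone release is steered, no gene of the axis passed. Over all genes tested 0.00663% were called in ARC and 0% in SCN, where edgeR called 0 genes, 325 genes had an unadjusted p under 0.05 and DESeq2 called 1. Ghr was at 27.1, 31.8 and 40.7 CPM in Hu ARC and at 24.8, 31.9 and 39.1 CPM in Mu ARC, a log2 difference of 0.06 (95% interval -0.11 to 0.22). Cish was at 3.98, 5.24 and 8.92 CPM in Hu and 3.51, 4.05 and 5.37 CPM in Mu ARC, a difference of 0.40 (unadjusted p = 0.00178, adjusted p = 0.638). For Socs2 in ARC the difference was 0.36 (unadjusted p = 0.0115, adjusted p = 0.940), and for Igf1 it was 0.28 (adjusted p = 0.999). In SCN the 4 tested genes lay between -0.09 (Socs2) and 0.19 (Cish). Igfals had 0 to 5 counts per library in both nuclei and was not tested.

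Hypothalamic control genes did not pass either. Ghrh, the releasing hormone made in ARC, was at 6.61 ± 1.51 CPM (SD, n = 10) in Hu ARC and 5.54 ± 1.74 CPM (n = 12) in Mu ARC, with a log2 difference of 0.25 (SE 0.17, adjusted p = 0.999). Sst was at 142 ± 24.2 and 125 ± 22.8 CPM, a difference of 0.18 (SE 0.11, adjusted p = 0.999). In SCN the differences were 0.21 for Ghrh (SE 0.43) and -0.10 for Sst (SE 0.16). Transcripts of Gh itself were not tested: they were at 0 to 0.771 CPM in Hu ARC and 0 to 29.1 CPM in Mu ARC, where summed pituitary markers ran from 0.412 to 41.6 CPM, and at 0 to 1.10 CPM in Hu SCN and 0 to 15.1 CPM in Mu SCN. Gh is itself one of these pituitary markers, and their part in its values was not tested. Circulating hormone was not measured in these libraries.

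A daily rhythm was called for 1 of the 5 mouse genes, in Mu livers. A 24 h cosine was fitted in each arm, and 17.3% of all genes passed in Mu livers against 0.167% in Hu livers. Socs2 in Mu livers passed, with an amplitude of 0.89 on the log2 scale and a peak at ZT 5.8 (adjusted p = 0.0249). Its Mu livers held 29.5 and 32.3 CPM at ZT 6, 13.7 and 14.8 CPM at ZT 10 and 3.78 and 8.31 CPM at ZT 14. In Hu livers Socs2 had an amplitude of 0.09 (adjusted p = 0.969). edgeR's quasi-likelihood test of different rhythms between the arms gave an adjusted p of 0.162 for Socs2, so the arms were not shown to differ; 1.28% of all genes passed that test. Without either Mu liver of ZT 6 the Socs2 rhythm no longer passed (adjusted p = 0.0797 without replicate 1 and 0.116 without replicate 2).

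Other genes of the axis did not pass a rhythm test in any tissue or arm, with 1.41 and 0.0995% of all genes called in Mu and Hu ARC and 0.207 and 0.00666% in Mu and Hu SCN. Cish in Mu livers had an amplitude of 0.92 (adjusted p = 0.229), with 2.61 and 3.63 CPM at ZT 2 and 30.9 and 63.7 CPM at ZT 18. Ghr in Mu muscle had an amplitude of 0.20 (adjusted p = 0.110), where 5.31% of genes passed (7.78% in Hu muscle, and 0.0704% for different rhythms); without the Mu library at ZT 2 with replicate number 2 it passed (adjusted p = 0.0267). Among human rows of Hu livers 1.08% of 12832 genes passed, and GHR (amplitude 0.05, adjusted p = 0.954), IGF1 (amplitude 0.26, adjusted p = 0.846), IGFALS (amplitude 0.45, adjusted p = 0.576) and CISH (amplitude 0.22, adjusted p = 0.764) did not.

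Hu livers differed widely in their human share, so the level of each gene was also fitted against it, with the rhythm terms in the model. Mouse Ghr fell by 0.26 on the log2 scale per 10 percentage points of human share (SE 0.06, adjusted p = 0.00509) and mouse Igfals fell by 0.31 (SE 0.10, adjusted p = 0.0239). These 2 of 5 genes passed, against 18.8% of mouse genes that fell and 22.9% that rose with the share. The part of mouse hepatocyte content in these slopes was not tested. Mouse Igf1 had a slope of -0.12 (adjusted p = 0.190), Cish of -0.06 (adjusted p = 0.680) and Socs2 of -0.0028 (95% interval -0.19 to 0.18). Without the Hu liver taken at ZT 6 with replicate number 1, the Igfals slope no longer passed (adjusted p = 0.0596).

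No human gene of the axis passed this test, and none of the 12832 human genes did in edgeR (824 rose and 841 fell at an unadjusted p under 0.05), while DESeq2 called 190. GHR had a slope of 0.12 per 10 points (95% interval 0.05 to 0.19, unadjusted p = 0.00279, adjusted p = 0.222; adjusted p = 0.0370 in DESeq2). The slopes of IGF1 (0.07), IGFALS (-0.03) and CISH (-0.06) had intervals that included 0. Among the 5 human genes, 10 correlations of log2 CPM across the 15 livers were computed, and none passed a permutation test after adjustment. The largest was that of IGFALS and CISH, with Pearson r = 0.615 (two-sided permutation p = 0.0138, adjusted p = 0.138) and Spearman rho = 0.464 (permutation p = 0.0826). Without the 2 livers farthest from the IGFALS median, r was 0.266.

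Further genes of the pathway were taken from lists of its parts. Over all genes tested, 42.5% rose and 37% fell in liver, and 13.5% and 13.3% in muscle. Per all counts the liver shares were 16.9% and 60.9%, and without TMM 72.6% and 12.9%. Of 11 genes of receptor signalling 1 rose and 4 fell in Hu livers: Jak2, the receptor's kinase, by 0.69 (SE 0.09, adjusted p = 1.42e-07) upward, and Stat5b (-0.52), Stat5a (-0.49) and the JAK2 adaptor gene Sh2b1 (-0.46) among those downward. The list median was -0.07, beside 0.07 over all genes tested. These small shifts followed the scaling: without TMM 8 rose and 0 fell, with Sh2b1, Stat5a and Stat5b at 0.22, 0.18 and 0.15, and per all counts 0 rose and 9 fell, with Jak2 at -0.10. In muscle 1 of the 11 was higher, the prolactin receptor gene Prlr (1.68, adjusted p = 5.59e-04), and Jak2 (-0.07), Stat5a (-0.02) and Stat5b (0.16) did not pass. With the fat cell covariate Prlr was at 0.52 (adjusted p = 0.360).

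Other inhibitors of the pathway gave a mixed picture. In liver 4 of 10 rose and 2 fell, among them Sirpa (1.41), Socs3 (1.03) and Ptpn1 (0.39) upward and Socs7 (-0.36) downward, with a list median of 0.22. Without TMM all 10 were called higher, and per all counts 1 was higher and 8 were lower, with Socs3 at 0.23 (adjusted p = 0.302). In muscle Sirpa (0.46) rose and Ptpn11 (-0.24) and Socs7 (-0.27) fell, and none of the 3 passed with the fat cell covariate.

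IGF receptors, binding proteins and proteases rose more than they fell. In liver 10 of 15 tested genes rose and 2 fell, beside 42.5% and 37% of all genes tested, with a list median of 1.16. The IGF1 receptor gene Igf1r rose by 2.08 (SE 0.20, adjusted p = 1.70e-09; 25.1 ± 21.5 CPM in Hu and 3.45 ± 0.843 CPM in Mu livers). Stc1 (3.11) and Stc2 (2.94), whose products inhibit the IGF-releasing protease PAPP-A, rose too, and Igfbp4, a binding protein that PAPP-A cuts, fell by 1.72 (675 ± 122 against 1427 ± 188 CPM). Igf1r stayed higher and Igfbp4 lower under each scaling (1.16 and -2.41 per all counts; 2.83 and -1.07 without TMM), although the list then gave 6 higher and 4 lower per all counts and 12 higher and 2 lower without TMM. The stellate and endothelial marker sums given above moved with this list.

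In muscle 7 of 15 genes of the same list rose and 2 fell, beside 13.5% and 13.3% of all genes tested. The list median was 0.37 beside 0.03 over all genes. Igfbp3, the main carrier of IGF1 in blood, rose by 1.39 (SE 0.24, adjusted p = 3.14e-04), and the protease gene Pappa2 rose by 1.63 (SE 0.34, adjusted p = 0.00136). The protease gene Htra1 (0.45, adjusted p = 5.21e-04) and the receptor gene Igf1r (0.40, adjusted p = 0.00757) rose as well. Igfbp2 fell by 2.13 (SE 0.37, adjusted p = 3.52e-04; 0.497 ± 0.299 against 2.08 ± 1.32 CPM). With the fat cell covariate 3 of 15 were higher and 1 lower, beside 2.07% and 1.94% of all genes. Pappa2 (1.52, adjusted p = 0.0385) and Igfbp2 (-2.33, adjusted p = 0.0344) were among them. Igfbp3 at 0.78 (adjusted p = 0.140) and Igf1r at 0.39 (adjusted p = 0.140) no longer passed.

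Liver genes with a known sex bias, which follow the pattern of growth hormone release in mice, were examined last. All 11 male-biased genes were lower in the mouse rows of Hu livers, with a list median of -2.70. Over all genes tested 37% were lower, and 9 of the 10 hepatocyte markers were lower too (list median -1.32). Elovl3, a fatty acid elongase, was at 0.176 ± 0.129 CPM in Hu and 260.5 ± 190.4 CPM in Mu livers (log2 difference -10.67, SE 0.46, adjusted p = 3.92e-15). Nudt7, a peroxisomal hydrolase of coenzyme A, was at -5.02 (SE 0.21), the complement gene C6 at -3.96 (SE 0.18) and the oxysterol hydroxylase Cyp7b1 at -4.46 (SE 0.25). All 11 were lower per all counts and 8 without TMM, beside 60.9% and 12.9% of all genes tested. In muscle 6 of the 11 were tested, and 2 rose (C6 and Elovl3) and 2 fell (Bcl6 and Nudt7). With the fat cell covariate none was higher and 1 was lower, Nudt7 (-0.81, adjusted p = 0.0364); C6 was at 0.90 (adjusted p = 0.302), Elovl3 at -0.85 (adjusted p = 0.645) and Bcl6 at -0.32 (adjusted p = 0.268).

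Of 10 tested female-biased genes 6 rose and 2 fell in the mouse rows, with a median of 1.67. Over all genes tested 42.5% rose and 37% fell. Cux2, a transcription factor of the female liver, rose by 3.79 (SE 0.40), Cyp2a4 by 3.07 (SE 0.43) and Fmo2 by 2.26 (SE 0.19). Per all counts 5 were higher and 3 lower, beside 16.9% and 60.9% of all genes. Without TMM 6 were higher and 1 lower, beside 72.6% and 12.9%. With the hepatocyte covariate 10 of 11 male-biased genes were lower, and 6 of 10 female-biased genes were higher with none lower; over all genes of that fit 40.5% were higher and 35.2% lower. All animals were male, so these lists name the known bias of the genes and not a comparison of sexes.

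**Figure D5:**
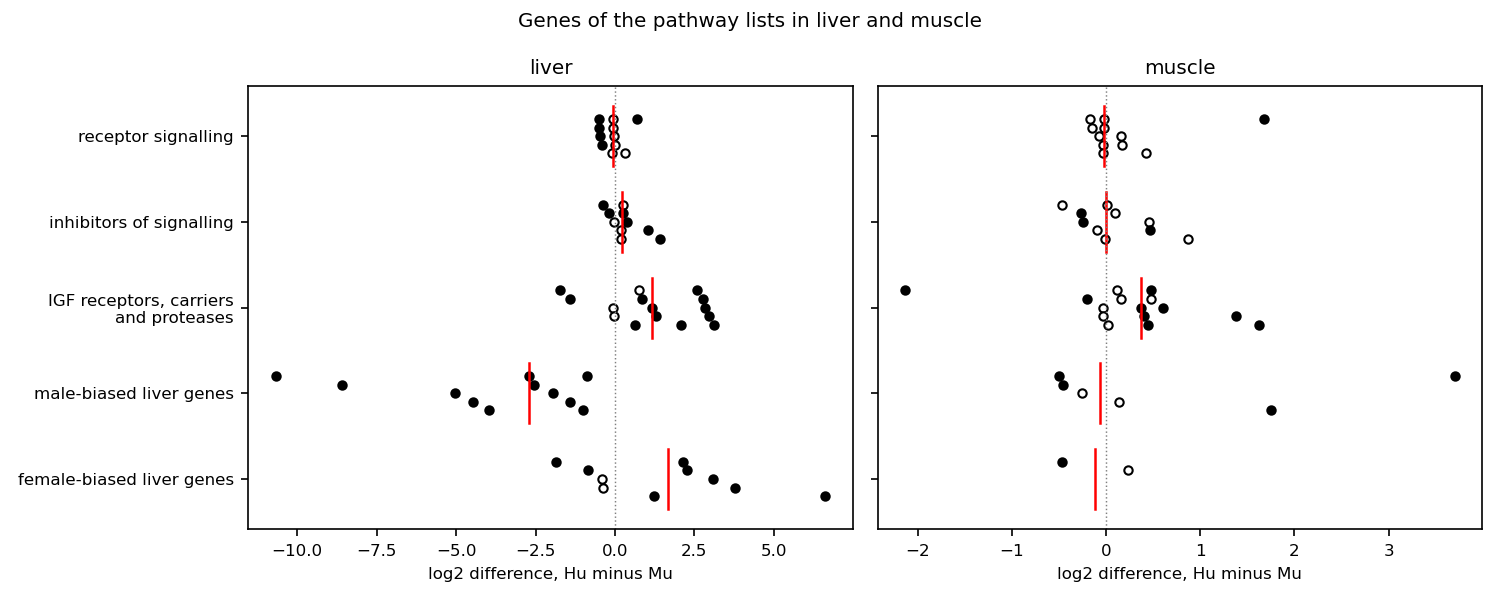
Fitted log2 difference, Hu minus Mu, of the tested genes of 5 lists in liver and in muscle, on axes of different range; filled points have an adjusted p under 0.05, open points do not, and red lines are list medians. In liver all 11 male-biased genes lie left of 0 and 6 female-biased genes are filled to its right.

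The genes whose log2 CPM followed each mouse gene most closely were listed over the 12 Mu livers and over the 27 muscle libraries, as a description of points that share libraries, depth and ZT. In muscle Igfals was the gene most like Socs2 (Pearson r = 0.80), followed by Llgl2 (0.78), which also stood second for Igfals (0.85). The 27 muscle libraries hold both arms, and Socs2 and Igfals were both higher in Hu muscle. The part of the arm in these r values was not tested. Ikzf4 followed Cish in both sets, at r = 0.91 in Mu livers and 0.73 in muscle. For Ghr the closest were Atrnl1 in Mu livers (0.98) and Emc4 in muscle (0.88), and for Igf1 in muscle it was Gm20547 (0.86). Socs2 in Mu livers was closest to D230025D16Rik (0.89), and Igfals there to Kat14 (0.94).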

How the data were processed

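RNA was measured by strand-specific sequencing in 98 libraries of liver, muscle, ARC and SCN. The authors deposited raw read counts per gene, 1 table with mouse and human genes for liver and 1 for the other tissues; STAR and the builds GRCm38, mm10, hg38, GRCh38 and hg19 are named in the submitters' processing notes, with no roles, and the counting tool is not given in the sources used here. Columns were matched to samples by name, 2 of them (Hu ZT 22 of ARC and of SCN) by group only. No 2 columns were identical.

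From these counts, edgeR 4.0.16 in R 4.3.3 (TMM, filterByExpr, quasi-likelihood test, Benjamini-Hochberg adjustment over all genes tested, threshold 0.05) fitted each tissue with the arm and a 24 h cosine and sine per arm. Mouse library sizes in liver were summed over mouse rows and human ones over human rows. DESeq2 1.42.0, other scalings, filters and time models, a replicate block and leaving out each library were alternatives. For levels, the replicate block kept only libraries whose ZT and number occurred in both arms. This left 12 pairs each in liver and muscle and 9 each in ARC and SCN. For rhythms, slopes and liver against muscle, the block added the replicate number as a factor and dropped no library. The scripts were tested on simulated data. TPM used exon lengths of GENCODE for GRCm38. Intervals of shares are Wilson intervals at 95% and cover counting error only. Same-numbered libraries deviated together with a mean r of 0.115 in liver, 0.0250 in muscle, 0.130 in ARC and 0.120 in SCN. Over 0.1 were 7 of 12, 2 of 12, 6 of 8 and 4 of 8 pairs. Where both arms had 2 libraries at a ZT, both pairs hold the same r, so these pairs are not independent. In liver r ran from 0.0129 to 0.312. The numbers were not taken to pair samples, a choice that these values do not decide.

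Genes of the axis and the pathway and marker lists were chosen with earlier results of these data known. Named besides the 10 genes were, per list and tissue, up to 4 called genes with the smallest p, with Ghrh, Sst and Gh in ARC and SCN, and Jak2, Stat5a, Stat5b and Igf1r in liver and muscle. Some genes that this rule names are not reported here. The somatostatin receptor genes Sstr2, Sstr3 and Sstr4, the 3 of 13 central control genes tested in liver, rose there (1.43, 2.32 and 3.89).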

Additional observations from a re-analysis of the deposited data

Results flagged for a closer look

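The change of Ghr, Igf1 and Igfals from Mu to Hu mice differed between liver and muscle by a test of the difference itself: liver minus muscle was -2.64 for Ghr, -2.21 for Igf1 and -4.31 for Igfals on the log2 scale. Each of the 3 genes was lower in Hu liver and higher in Hu muscle. With the fat cell covariate none of the 3 muscle rises passed (Ghr 0.11, adjusted p = 0.425; Igf1 0.32, adjusted p = 0.262; Igfals 0.62, adjusted p = 0.105), and that of Ghr did not pass with ZT as a factor either (adjusted p = 0.0543).

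In Hu ARC the highest of 10 Cish values, 8.92 CPM, stood apart from the other 9 by more than the Dixon limit. It was 1 of 8 groups tested in this way, and chance gives such a value in about 1 group in 20. The value came from the only Hu ARC library at ZT 6, and all ZT were pooled. An outlying library and a difference by time therefore cannot be told apart.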

How the results depend on the processing

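Of the called differences between arms in the genes of the axis, 266 of 272 recomputed values kept their direction and side of the threshold. Fits that left out 1 library each kept 27 of 27 for every such gene and tissue, so all losses came from the other settings. Those kept 7 of 8 for Socs2 in liver. In muscle they kept 5 of 6 for Igf1, 5 of 6 for Igfals and 3 of 6 for Ghr. In liver, dividing by all counts put Socs2 at 0.24 and Cish at -0.97; Cish was 0.43 with a replicate block, 0.013 with ZT as a factor, 0.43 without TMM and -0.37 to 0.0398 with 1 library left out. In muscle, Ghr kept its call in 3 of 6 alternatives, those with 1 library left out not counted. It no longer passed at 0.18 with a replicate block of 12 pairs (adjusted p = 0.149). Nor did it pass at 0.19 with ZT as a factor or at 0.11 with the fat cell covariate. That covariate put Igf1 at 0.32 and Igfals at 0.62, neither passing. Cish ran from 0.56 to 1.18 with 1 library left out. The muscle count of 3817 genes became 2524 with the replicate block, which held fewer libraries, and 569 with the fat cell covariate. ARC had 14 called genes in DESeq2, 0 with a replicate block and 1 to 2 with 1 library left out (1 in the fit reported), and SCN had 1 in DESeq2 and 0 to 1 with 1 library left out.

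Counts of rhythmic genes moved as well. DESeq2 called 516 in Hu liver (25 in edgeR), 1494 in Mu and 1703 in Hu muscle (754 and 1104), 511 in Mu and 87 in Hu ARC (213 and 15), 287 in Mu and 22 in Hu SCN (31 and 1) and 1125 of human rows (139). Different rhythms between arms were called for 1129 genes in liver by DESeq2 and 107 without the filter (192), and for 158 in muscle (10). Without the filter Hu ARC had 40, and with a replicate block Hu ARC had 5, Mu SCN 20 and Hu SCN 0. Leaving out 1 library gave 1460 to 3559 in Mu liver, 8 to 827 in Hu liver, 38 to 1009 for different rhythms in liver, 388 to 1110 in Mu muscle, 602 to 1138 in Hu muscle, 0 to 19 for different rhythms in muscle, 86 to 282 in Mu ARC, 5 to 18 in Hu ARC, 10 to 56 in Mu SCN, 0 to 3 in Hu SCN and 14 to 357 of human rows. The adjusted p of the Socs2 rhythm in Mu liver ran from 0.0127 to 0.116, and that of Ghr in Mu muscle from 0.0267 to 0.322. The causes were not tested.

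For slopes on the human share, human genes called were 2 without the filter, 190 in DESeq2 and 0 to 30 with 1 library left out (30 without the Hu liver at ZT 18 with replicate number 2). Mouse genes called were 1490 with a replicate block and 3365 to 6227 with 1 library left out (5792; 3365 without the Hu liver at ZT 18 with replicate number 3). With the block, Ghr was -0.25 (adjusted p = 0.0830) and Igfals -0.28 (adjusted p = 0.178), so that neither passed; Socs2 was 0.12, Cish 0.0068, IGF1 -0.0741 and IGFALS 0.17; Socs2 was 0.0024 with RLE size factors and 0.0027 in DESeq2. With 1 library left out, IGFALS ran from -0.0702 to 0.0739, CISH from -0.0833 to 0.0143, Socs2 from -0.0426 to 0.0679 and Igfals from -0.41 to -0.21. In SCN, Ghr was -0.0205 with the block and ran from -0.0793 to 0.0558, and Igf1 from -0.13 to 0.0626. The liver minus muscle value of Cish ran from -1.49 to -0.78. That test could not be fitted without the filter. The block changed no other call of a gene of the axis. Low counts limit human SOCS2 in liver and Igfals in ARC and SCN.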
